A study of Homo sapiens with 8 samples.

Results

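The genes described here encode the proteins of the cytosolic ribosome. They were chosen by symbol: protein-coding genes on chromosomes 1 to 22 named RPL or RPS with a number, together with RPLP0, RPLP1, RPLP2 and RPSA. The rule found 77 of 19126 protein-coding genes, 46 for the large subunit and 31 for the small subunit, and it used no measured value. RPS4X, RPL10, RPL36A and RPL39 on the X chromosome, and RPL and RPS genes with other suffixes, fall outside it.

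ATAC-seq, an assay that uses the transposase Tn5 to place sequencing adapters in open DNA, had been run on mitotic hTERT RPE-1 cells, a telomerase-immortalised line from human retinal pigment epithelium. All 8 libraries came from cells of the genotype Plk1-/- EGFP-Plk1as: they had no endogenous Plk1, a mitotic kinase, and carried a GFP-tagged analog-sensitive Plk1 that 3MB-PP1 inhibits. All had been held in mitosis for 16 h with 5 µM STLC, a kinesin-5 inhibitor, and reactions held 50000 cells at a mitotic index above 95%. Still in STLC, the cells of 4 libraries then received 0.5% DMSO and those of 4 received 10 µM 3MB-PP1, for 2 h. There was thus no interphase sample, no sample without STLC and no sample of unmodified parental cells. The comparison asks what inhibition of Plk1 does to chromatin of arrested cells.

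Each library gave its own list of peaks, 149172 to 197782 in DMSO and 169667 to 250548 in 3MB-PP1 on chromosomes 1 to 22. The lists hold no read totals, so read depth is unknown. The share of peaks on the X chromosome was 0.868% to 0.933% in the odd-numbered replicates and 0.595% to 0.694% in the even-numbered ones, in both groups, so the main differences are also given for odd and for even numbers alone. KRT8, KRT18, MITF and OTX2, markers of epithelium and of retinal pigment epithelium, had a peak at a gene end in all 8 lists, RLBP1 in 5, BEST1 and TYR in 2 each, and RPE65 in none. Of markers of other cell types, PTPRC and ALB had none, and MYH6 had one in 3 lists.

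Ribosomal proteins are made in equal amounts and in great quantity in growing cells, and their genes are among the most highly transcribed by RNA polymerase II. Their promoters lie in CpG-rich DNA and often start transcription at a C inside a run of pyrimidines. That run becomes the 5′ terminal oligopyrimidine (TOP) motif of the mRNA, through which mTOR signalling controls translation. During mitosis most transcription stops while many promoters keep some accessibility.

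Promoter sequences are shown for 9 members named in the results below. They include the 3 highest-ranked members (RPL41, RPL36 and RPS19) and RPLP0, a stalk gene beside a neighbour's promoter. RPS21 and RPS16 had the largest positive differences in rank with 3MB-PP1. RPS27 had a peak in few lists, and RPS23 and RPL21 were among the lowest ranked. Each run is 110 bases from RefSeq (GRCh38.p14), 5′ to 3′ on the gene's strand, with 90 bases before the annotated start and 20 from it. Capitals mark the TOP-like run at the start and matches to the motifs named after the sequences.
RPL41 (chr12:56116543-56116652, plus strand): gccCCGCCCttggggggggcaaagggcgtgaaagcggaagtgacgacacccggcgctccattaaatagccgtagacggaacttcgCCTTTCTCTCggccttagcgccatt
RPL36 (chr19:5690205-5690314, plus strand): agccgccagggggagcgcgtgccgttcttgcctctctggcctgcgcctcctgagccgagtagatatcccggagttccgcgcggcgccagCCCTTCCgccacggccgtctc
RPS19 (chr19:41860165-41860274, plus strand): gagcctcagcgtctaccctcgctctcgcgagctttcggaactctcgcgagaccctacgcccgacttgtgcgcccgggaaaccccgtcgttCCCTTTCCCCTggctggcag
RPLP0 (chr12:120201092-120201201, minus strand): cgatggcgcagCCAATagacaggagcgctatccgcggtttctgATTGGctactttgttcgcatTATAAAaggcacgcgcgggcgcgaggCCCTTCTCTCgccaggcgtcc
RPS21 (chr20:62387013-62387122, plus strand): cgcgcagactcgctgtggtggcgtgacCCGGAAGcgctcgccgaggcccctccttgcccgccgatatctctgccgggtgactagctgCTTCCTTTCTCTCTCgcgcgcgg
RPS16 (chr19:39435930-39436039, minus strand): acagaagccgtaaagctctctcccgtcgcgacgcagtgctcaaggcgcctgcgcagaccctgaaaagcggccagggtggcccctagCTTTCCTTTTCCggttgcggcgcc
RPS27 (chr1:153990672-153990781, plus strand): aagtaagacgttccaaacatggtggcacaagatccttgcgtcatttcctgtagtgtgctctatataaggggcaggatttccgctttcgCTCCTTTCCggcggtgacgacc
RPS23 (chr5:82278335-82278444, minus strand): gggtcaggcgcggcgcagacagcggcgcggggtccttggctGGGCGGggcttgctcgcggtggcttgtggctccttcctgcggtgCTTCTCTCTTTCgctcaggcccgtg
RPL21 (chr13:27251468-27251577, plus strand): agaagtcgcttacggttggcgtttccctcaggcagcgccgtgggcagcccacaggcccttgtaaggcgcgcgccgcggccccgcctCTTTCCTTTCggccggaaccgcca

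A TOP-like start, counted here as a C within 5 bases of the annotated start on the gene's strand followed by at least 4 pyrimidines, was present in all 9 of these promoters. Over the 60 members with an entry in the promoter table it was found in 47 (78.3%), against 22.1% of the 15101 promoters of all genes. The other motifs were searched on both strands of 300 bases, 250 before the start and 50 from it. CCGGAAG, a core bound by ETS factors, was in 21 members (35.0%) against 14.3% of all promoters, and RPS21 carries one in the stretch shown. AAGATGGC, the core of YY1 sites, was in 6 members (10.0%) against 3.87%. It can overlap CCGGAAG by its first letters. The TATA box letters TATAAA were in 6 members (10.0%) against 9.83%, and RPLP0 shows one. GGGCGG, the GC box bound by Sp factors, was in 33 (55.0%) against 58.7%, and CCAAT, bound by NF-Y, in 22 (36.7%) against 36.1%. The median GC content was 59.3% in members and 62.7% in all promoters. These are matches of letters in a window, not binding sites.

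Nearly every ribosomal protein gene had a called accessible site at a gene end in these mitotic cells, with or without the inhibitor. A gene-end peak was a called peak that reached within 1 kb of either end of the gene. It was present in all 8 lists for 74 of the 77 members (96.1%), and the background over all 19126 protein-coding genes was 61%. By subunit the counts were 44 of 46 for the large and 30 of 31 for the small. Between 74 and 76 members were called in any one list, 74 to 75 in DMSO and 74 to 76 in 3MB-PP1. No member had a peak in all 4 lists of one group and none of the other, for which the background was 0.0575% (DMSO only) and 0.125% (3MB-PP1 only). Members are short genes, with a median length of 5011 bp against 24476 bp, and a part of their peaks lies at a neighbour's end as well, as described below.

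The same count was made with a stricter call, a gene-end peak with a -log10 q of at least 5. The q value is the authors' measure of how far a peak stands above the background of its own list. At that level 43 members (55.8%) were called in all 8 lists, against a background of 29.3%. Per list, the best peaks of 74, 66, 73 and 58 members passed in DMSO replicates 1 to 4, and those of 69, 53, 64 and 43 in the 3MB-PP1 replicates. The number over all genes also varied, from 7381 to 9904 in DMSO and from 5877 to 8408 in 3MB-PP1.

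The members without a peak in all 8 lists were RPS27, RPL3L and RPL10L. RPL3L, whose product replaces RPL3 in striated muscle, was called in 1 DMSO and 2 3MB-PP1 lists, and RPL10L, a testis-expressed copy of RPL10, in 1 3MB-PP1 list by a peak of 164 bp. RPS27 is different, since its product is a standard part of the small subunit. It lies on chromosome 1 from 153990762 to 153992155. Its start was covered by a peak in DMSO replicate 1, from 90 bp before to 300 bp past it (-log10 q of 1.95), and in 3MB-PP1 replicate 1, from 113 bp before to 247 bp past it (-log10 q of 1.35). In the other 6 lists the nearest peak lay 3358 to 3753 bp away. The absence of a call says only that no peak passed the threshold of that list. The RPS27 promoter shown above holds a TOP-like start, as do those of 46 of the 58 members with a listed start that were called in all 8 lists. RPS27L, the paralog of RPS27 induced by p53, was called in all 8 lists at a mean rank of 74.1 in DMSO and 74.2 in 3MB-PP1, and RPL39L, a testis-enriched copy of RPL39, in all 8 at 42.6 and 40.5.

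**Figure D1:**
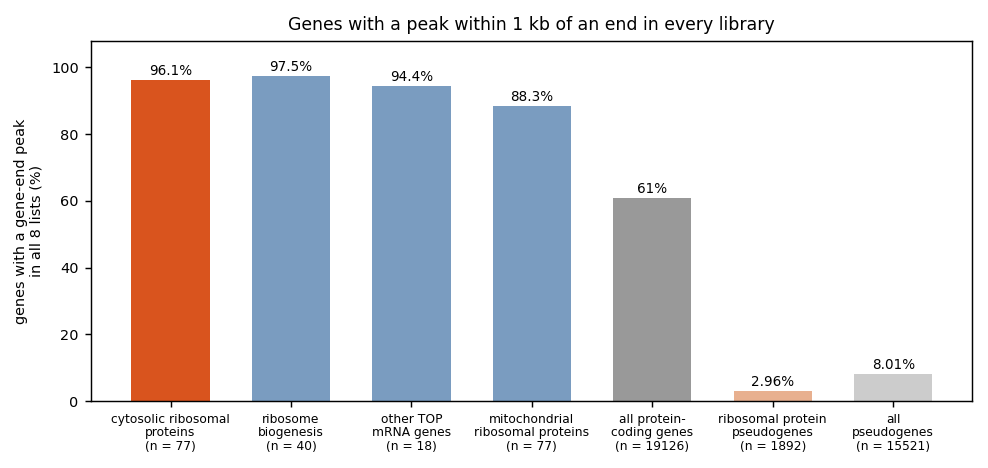
The height of each bar is the percentage of genes of a class with a peak within 1 kb of a gene end in all 8 lists, with the number of genes below it. Cytosolic ribosomal protein genes reach 96.1% and all protein-coding genes 61%, while ribosomal protein pseudogenes reach 2.96%.

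The pseudogenes give a view of the same sequences outside their promoters. Of 1892 annotated ribosomal protein pseudogenes, mostly retrocopies of spliced mRNA that lack the parent promoter, 56 (2.96%) had a peak at an end in all 8 lists, against a background of 8.01% of 15521 pseudogenes of any kind. No list called fewer than 291 or more than 511 of them, and 862 (45.6%) were called in none. How reads that match several copies were placed is not given in the sources used here.

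Genes of related pathways were also called in most cases, with larger gaps at the stricter call; differences between the lists were not tested. Of 40 genes of ribosome biogenesis, such as NCL, FBL and NOP56, 39 (97.5%) had a peak in all 8 lists. Of 18 other genes with TOP mRNAs, among them EEF1A1, EEF2 and TPT1, 17 (94.4%) did. Of the 77 genes for mitochondrial ribosomal proteins, nuclear genes whose products serve a separate ribosome, 68 (88.3%) did. At a -log10 q of at least 5 in all 8 lists, the counts and shares were 26 of 40 biogenesis genes, 77.8% of the other TOP genes and 31.2% of mitochondrial ribosomal protein genes, beside 55.8% of members. The ranks of their best peaks are given in the next paragraph.

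Among the called members the pileup of the best peak varied widely. Pileup is the authors' coverage value for a peak. The lists hold no summit position, so whether it was taken at the summit or averaged over the peak is not known. For each list, the best gene-end peak (the one of highest pileup) was ranked among all 19126 protein-coding genes. The rank is a percentile from 0 to 100, since pileup has no stated scaling between libraries. Any part of peak width in the ranks was not tested. The mean rank over the 8 lists had a median of 74.2 over the 74 members, against 69.02 over the 11667 genes called in all 8 lists. It exceeded 50 for 64 of the 74 members (86.5%), against 77.9% of the 11667 genes. It exceeded 90 for 11 members (14.3% of 77), beside a background of 9.65% of all genes. These 2 shares also count genes not called in all 8 lists. Among genes called in all 8 lists it was 11 of 74 members and 1845 of 11667 genes, so members showed no excess there. The median was 74.54 for the large and 74.2 for the small subunit. It was 61.63 for mitochondrial ribosomal protein genes, 72.58 for biogenesis genes and 86.06 for the other TOP genes.

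RPL41, which encodes one of the smallest human proteins, had the highest mean, at 98.81, 98.51, 99.02 and 98.31 in DMSO replicates 1 to 4 and 98.48, 97.68, 98.60 and 97.27 in the 3MB-PP1 replicates. RPL36 had a mean of 97.1 ± 0.313 (SD, n = 4) in DMSO and 97.3 ± 1.00 in 3MB-PP1. RPS19, the gene most often mutated in Diamond-Blackfan anaemia, had 97.3 ± 0.854 and 96.6 ± 0.953. List by list, the best peak of RPL41 ranked above that of RPS19 in all 8 lists, and RPL36 had no fixed place relative to either. RPL13 (94.1 ± 2.34 and 93.6 ± 0.608) and RPL18 (93.2 ± 1.55 and 93.9 ± 1.65) came next, and they too overlapped each other.

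At the other end stood RPS23, which helps form the decoding centre of the ribosome, with ranks of 39.22, 32.59, 34.98 and 26.85 in DMSO and 33.37, 29.01, 45.44 and 30.67 in 3MB-PP1. RPS20 had 36.3 ± 11.8 and 37.7 ± 10.1, RPL21 39.6 ± 7.36 and 38.0 ± 4.38. RPS27A, which encodes a fusion of ubiquitin and a small-subunit protein, ranged from 33.07 to 54.20 in DMSO and from 34.93 to 44.56 in 3MB-PP1, and RPL39L from 33.62 to 47.39 over all 8 lists. These low-ranked genes overlapped each other and spread over more rank units than the high-ranked ones. The best-ranked member was called in every list at a -log10 q of at least 16.0, while that of RPS23 lay between 1.74 and 5.80.

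The stalk, an extension of the large subunit that recruits translation factors, is formed by RPLP0, RPLP1 and RPLP2. Mean ranks in DMSO and 3MB-PP1 were 87.1 ± 0.588 and 86.4 ± 1.23 for RPLP0, 69.0 ± 3.99 and 73.6 ± 1.60 for RPLP1, and 89.7 ± 1.65 and 90.1 ± 2.20 for RPLP2. RPLP2 ranked above RPLP1 in every list of both groups. So did the best peak of RPLP0, which lies at the end of its neighbour GCN1; the peak over the RPLP0 start ranked below that of RPLP1 in 3MB-PP1 replicates 2 and 4 (73.41 against 76.24 and 69.02 against 73.92). RPSA, a small-subunit protein also known as the laminin receptor, differed more between replicate numbers than between treatments, with 69.16, 60.80, 57.66 and 44.15 in DMSO and 70.17, 58.26, 63.16 and 42.88 in 3MB-PP1. Replicate 1 was highest and replicate 4 lowest in both groups.

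**Figure D2:**
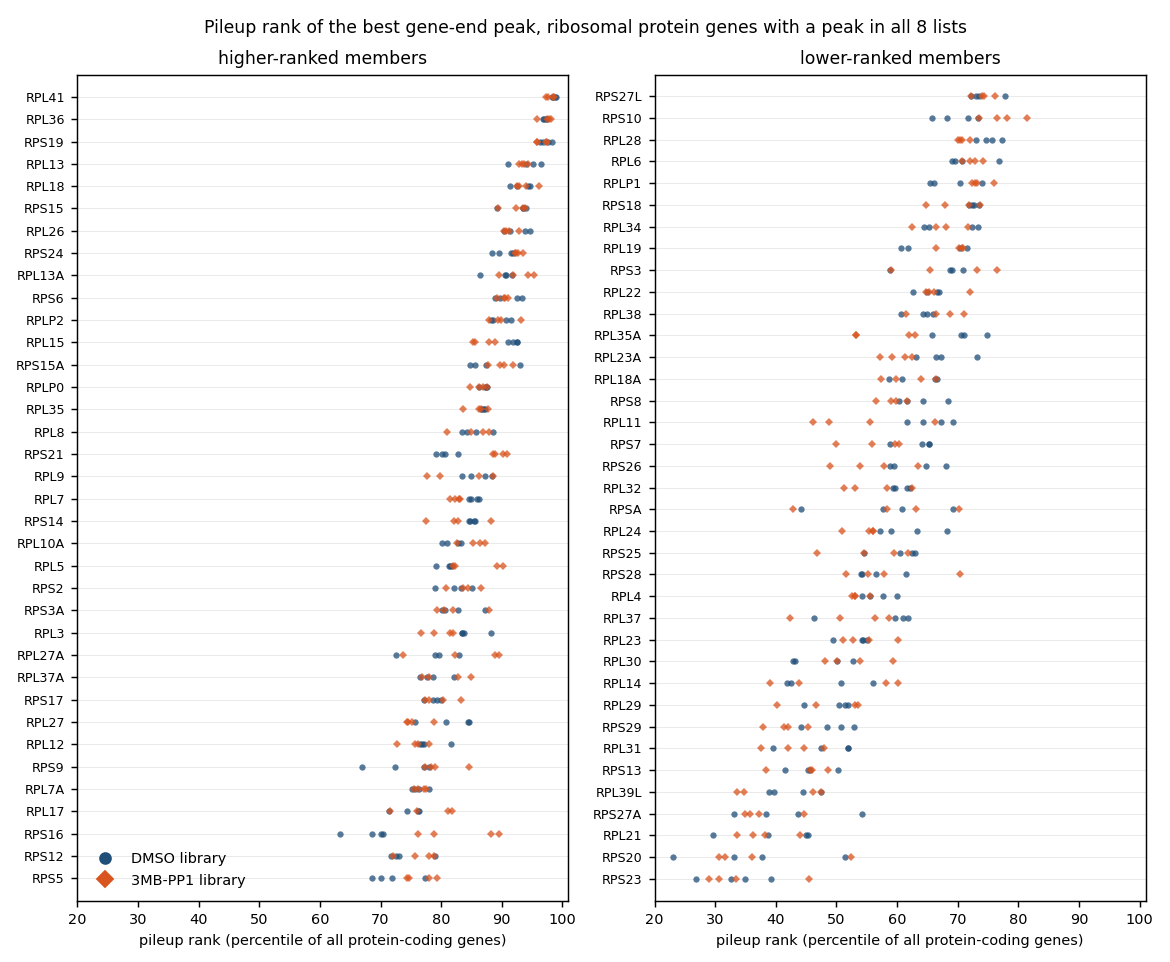
Each row is a member called in all 8 lists, ordered by mean pileup rank, and each point is the percentile rank of its best gene-end peak in 1 library (circles DMSO, diamonds 3MB-PP1). Ranks run from RPL41 near 98 to RPS23 near 34, and the points of both groups overlap for most genes.

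Because members are short and lie in gene-dense DNA, the best peak of a member can belong to a neighbour. In 28 of the 74 (37.8%) it was also within 1 kb of an end of another protein-coding gene, against 32.9% of all genes called in 8 lists. RPL41 shared its best peak with ZC3H10, RPLP0 with GCN1, RPL36 with LONP1, RPL18 with SPHK2, RPS21 with CABLES2, and RPL4 with SNAPC5 and ZWILCH. Where the promoter table gives a start, the peak over the start itself can be read. For RPL41 this peak had a mean rank of 97.7 in DMSO and 95.1 in 3MB-PP1 among the 15101 genes with a listed start, and in all 4 3MB-PP1 lists it ranked below the start peak of RPS19. For RPLP0 it had 79.1 and 74.4, below the ranks of its best gene-end peak, which lay at the GCN1 end.

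A peak covered the annotated start in all 8 lists for 53 of the 60 members with a listed start (88.3%), against 7669 of 15101 genes (50.8%). The exceptions were RPL10L and RPL6 (no list), RPS27 (2 lists), RPS27A (5), RPL15 (6), and RPL29 and RPS29 (7 each). The listed start of RPL6 lies 7393 bp inside the end of its gene, so the value there concerns an internal start. The best gene-end peak was itself the one over the start, in every list, for 49 of 58 members (84.5%) and for 72.3% of all genes.

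Seen from the start, the accessible region of these 49 members reached farther upstream than into the gene. In DMSO the upstream edge lay at a median of 681 bp and the downstream edge at 530 bp. Over all genes with such a peak the downstream edge was the farther one, with medians of 651 bp upstream and 778 bp downstream. The downstream edge was farther than the upstream edge in 15 of the 49 members in DMSO and in 17 in 3MB-PP1. RPL36 was one of these, with 365 bp upstream and 761 bp downstream in DMSO. RPS19 had 812 bp and 580 bp, and RPS16 had 375 bp and 338 bp. This comparison is a description and carries no test, and peak width is not corrected for gene length.

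In the 3MB-PP1 lists both edges lay nearer to the start. The median upstream edge was 565 bp and the downstream edge 478 bp. Gene by gene the median change was -68.25 bp upstream and -42.75 bp downstream, against -66.75 and -65.0 over all genes. The upstream distance was shorter in 41 and the downstream distance in 39 of the 49 members. RPL22, whose product binds small viral RNAs, had the upstream edge at 881 bp in DMSO and 165 bp in 3MB-PP1 while the downstream edge was at 554 and 582 bp. For RPL17, which lines the exit tunnel, the upstream edge was at 721 and 315 bp and the downstream edge at 651 and 644 bp.

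**Figure D3:**
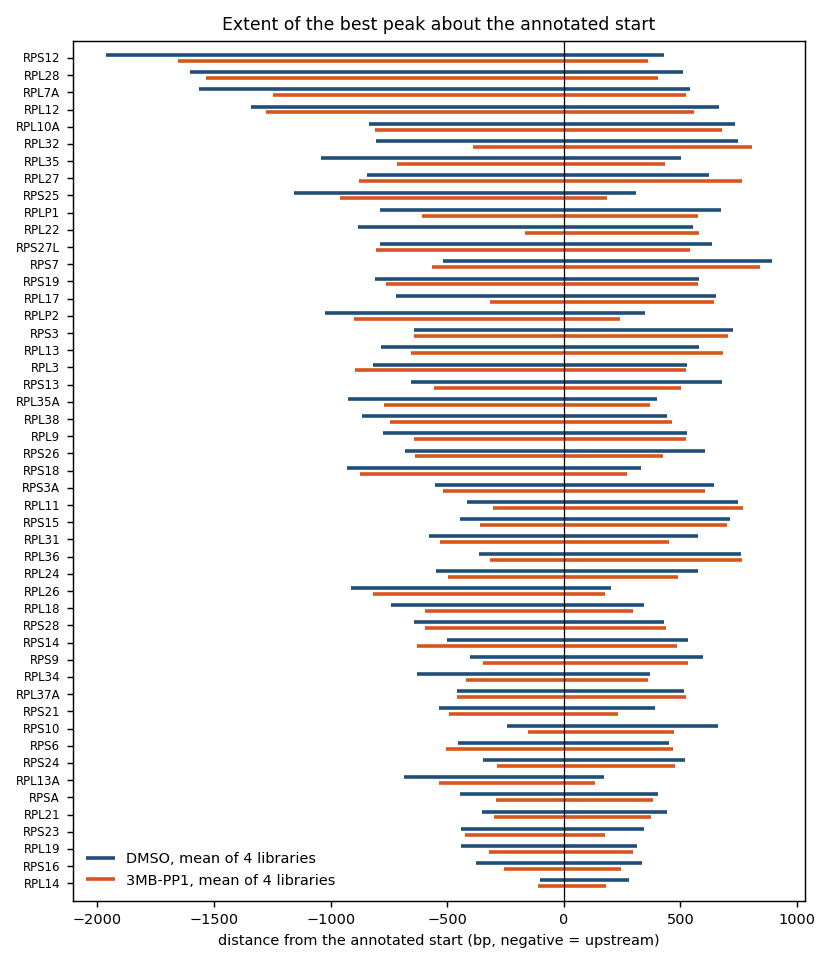
Horizontal bars show how far the best peak extends from the annotated start (0) of the 49 members whose best peak covers it in all 8 lists, in bp, as the mean of 4 libraries in DMSO (blue) and 3MB-PP1 (orange). The orange bars are mostly the shorter ones on both sides, and most bars reach farther upstream than downstream.

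Peaks at ribosomal protein genes were narrower in the 3MB-PP1 lists, by about as much as peaks at other genes, and no single member passed the test. The median width of the best peak over members was 1305.5, 1249.5, 1351 and 1155.5 bp in DMSO replicates 1 to 4 and 1101, 1026.5, 1067 and 1031 bp in the 3MB-PP1 replicates. All 4 values with 3MB-PP1 lay below all 4 with DMSO, 1056 ± 34.8 bp against 1265 ± 84.2 bp (SD, n = 4). Over all genes the values were 1225 ± 41.8 bp and 1453 ± 82.3 bp. The median difference in log2 width (3MB-PP1 minus DMSO) was -0.234 for members and -0.192 for all genes, widths of 0.85 and 0.875 times those in DMSO. The member median was -0.19 from odd-numbered replicates alone and -0.179 from even-numbered ones. The median pileup of the members' best peaks was also lower in the 3MB-PP1 lists, at 25.67 to 34.35 against 33.27 to 59.19 in DMSO (23.24 to 29.77 against 30.64 to 52.56 over all genes), and its part in the widths was not tested.

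Gene by gene, 69 of the 74 members (93.2%) had a lower mean log2 width with 3MB-PP1, as had 87.9% of all genes. In the limma fit over 11667 genes with Benjamini-Hochberg adjustment, 0 members passed an adjusted p of 0.05, beside a background of 1.37% in either direction (1.36% narrower and 0.00857% wider). Without adjustment, 18 members (24.3% of 74) had a p under 0.05, against 20.4% of all genes fitted. The smallest adjusted p was 0.0905, for RPL30, a large-subunit protein that binds its own transcript in yeast. Its widths were 1346, 1594, 1606 and 1392 bp in DMSO and 1182, 1170, 1045 and 1098 bp in 3MB-PP1, a log2 difference of -0.40 (SE 0.0872). The groups did not overlap for this gene.

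In all, the groups did not overlap for 10 members, all narrower with 3MB-PP1, beside a background of 13.4%. Among them were RPL5, RPL30, RPL31, RPL41, RPLP0, RPLP1, RPS2, RPS10 and RPS24. RPL5, which with RPL11 binds the p53 regulator MDM2 when ribosome assembly fails, had 1102, 1077, 1131 and 1028 bp in DMSO and 916, 1019, 885 and 989 bp in 3MB-PP1. The peak at the GCN1 end of RPLP0 had 2005, 2153, 2272 and 1898 bp against 1705, 1582, 1678 and 1707 bp. The peak over the RPLP0 start had 1861, 1713, 1973 and 1674 bp against 1469, 1522, 1889 and 1590 bp, which overlapped (log2 difference -0.16, limma adjusted p = 0.324). For RPL41 too the widths of the start peak overlapped, with 892 to 1051 bp in DMSO and 731 to 994 bp in 3MB-PP1. RPLP1 had 1391, 1473, 1557 and 1428 bp against 1047, 1278, 1276 and 1127 bp. No member had all 4 values wider with 3MB-PP1, for which the background was 0.163%.

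The largest differences in mean log2 width came from genes whose lists disagreed within a group. RPL23A, which contacts the signal recognition particle at the exit tunnel and whose best peak also lies at an end of RAB34, had a difference of -1.15 (limma adjusted p = 0.198). Its DMSO widths were 1228, 2807, 3180 and 953 bp and its 3MB-PP1 widths 881, 722, 1069 and 629 bp. RPS20 had -1.06 (adjusted p = 0.19), RPL29 -0.98, RPL22 -0.86 and RPL17 -0.54. RPL22 had 1581, 1744 and 1729 bp in DMSO replicates 1 to 3, and 688 bp in replicate 4, against 858, 723, 795 and 614 bp in 3MB-PP1. Without DMSO replicate 4 its difference was -1.18 with an adjusted p of 0.0084, and without 3MB-PP1 replicate 4 that of RPL17 was -0.69 with 0.0484. Values above 0 were found for RPL27 (0.16), RPS6, the substrate of S6 kinase (0.10), RPS14 (0.10), RPL3 (0.08) and RPL4 (0.00), with the groups overlapping for each. The best peak of RPL4 was not the one over its start in every list: the start peak had 1407, 1143, 1645 and 1081 bp in DMSO and 1194, 985, 1043 and 1035 bp in 3MB-PP1.

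**Figure D4:**
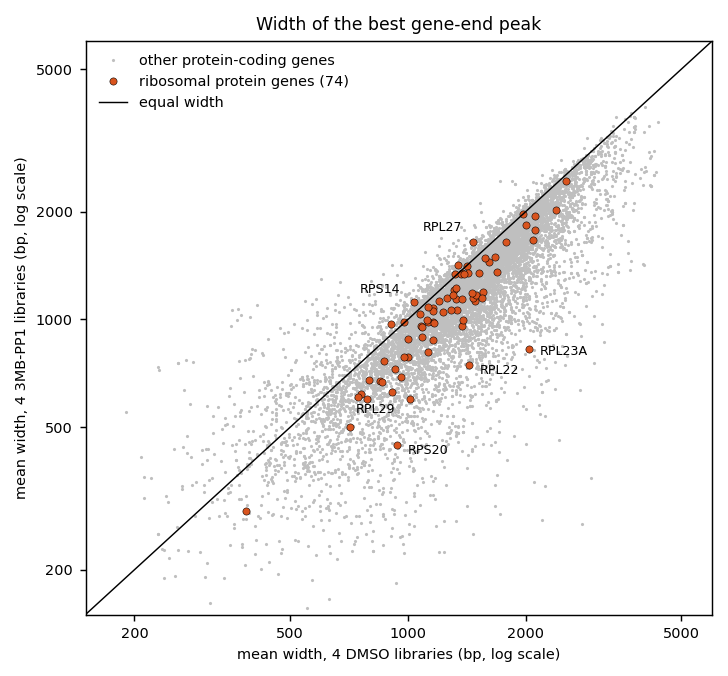
Each point is 1 gene called in all 8 lists, placed by the mean width of its best gene-end peak in 4 DMSO libraries (x axis) and 4 3MB-PP1 libraries (y axis), in bp on log scales, with the 74 members in orange, other protein-coding genes in grey and equal width as a line. Members lie within the grey cloud and 69 of 74 have a lower mean log2 width with 3MB-PP1.

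Differences in rank with 3MB-PP1 had both signs. In the fit without the replicate number 1 member passed the test. With the replicate number as a block, 0 members and 0 of all genes did. Over the 74 members the median difference in pileup rank was -0.32 against -0.43 over all genes, with 39 members lower and 35 higher. The median was -0.80 for the large subunit, where 26 of 44 were lower, and 0.59 for the small subunit, where 17 of 30 were higher. The difference between the subunits was not tested. In the limma fit without the block over 11667 genes, RPS21 was the member past an adjusted p of 0.05. The background in that fit was 0.0771% higher and 0.0514% lower. Without adjustment, 16 members (21.6% of 74) had a p under 0.05, against 16.8% of all genes fitted.

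RPS21 encodes a small protein of the small subunit and lies on chromosome 20 from 62387103 to 62388520. Its best peak ranked at 80.65, 79.11, 82.72 and 80.15 in DMSO and at 88.52, 88.90, 90.81 and 90.26 in 3MB-PP1. The groups were far apart compared with their spread. RPS21 rose by 8.96 rank units (SE 1.13, limma adjusted p = 0.0442, higher in 4 of 4 libraries than any DMSO library), with 7.98 in odd-numbered replicates alone and 9.95 in even-numbered ones. With the replicate number as a block the difference was the same and the adjusted p was 0.093, and with any 1 library left out it was 0.0501 to 0.163, so the call was lost each time. With the peak over the annotated start in place of the best gene-end peak, which can also belong to CABLES2, ranks were 80.53, 79.07, 82.77 and 80.45 against 88.57, 89.04, 90.83 and 90.48, and the limma adjusted p over 7669 genes was 0.0254. This last fit was added after the data were seen. Its widths were 1069, 821, 886 and 929 bp in DMSO and 898, 622, 814 and 584 bp in 3MB-PP1, which overlapped.

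RPS16, whose tail reaches the tRNA in the ribosomal P site, had the largest positive difference. It ranked at 70.39, 63.33, 70.04 and 68.66 in DMSO and at 88.29, 76.15, 89.51 and 78.78 in 3MB-PP1. The difference was 15.07 (SE 3.35) with a limma adjusted p of 0.0998, which misses the threshold, although the groups did not overlap. Odd-numbered replicates alone gave 18.7 and even-numbered ones 11.5. The peak lay over the start in every list and no end of another protein-coding gene was within 1 kb of it. RPS10, mutated in some cases of Diamond-Blackfan anaemia, had 69.8 ± 3.43 and 77.4 ± 3.28, a difference of 7.61 (adjusted p = 0.151). RPS9 had a difference of 6.19 (adjusted p = 0.31) and RPL30 one of 5.63 (adjusted p = 0.416), both with overlapping groups.

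The largest negative differences were all below the threshold too. RPL35A, needed for maturation of the large subunit, ranked at 74.85, 65.69, 70.58 and 71.02 in DMSO and at 53.18, 61.93, 62.94 and 53.28 in 3MB-PP1, a difference of -12.70 (SE 2.95, limma adjusted p = 0.102). RPL11 had 65.6 ± 3.32 and 54.2 ± 8.94, a difference of -11.44 (adjusted p = 0.235). RPL23A had -7.50 (adjusted p = 0.155), RPS29 -7.41 (adjusted p = 0.16) and RPL24, which takes part in a bridge between the subunits, -7.37 (adjusted p = 0.206). The groups did not overlap for RPL35A, RPL23A and RPL24, and overlapped for RPL11 and RPS29.

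Counted over the list, the groups did not overlap for 7 members lower with 3MB-PP1, beside a background of 6.86%, and for 5 members higher, beside a background of 3.92%. The 7 were RPL3, RPL7, RPL15, RPL23A, RPL24, RPL28 and RPL35A, all of the large subunit. The 5 were RPL5 and the small-subunit genes RPS10, RPS16, RPS21 and RPS24. RPL15 had 91.03, 92.53, 92.56 and 91.79 in DMSO against 87.90, 85.21, 85.55 and 88.86, with a limma adjusted p of 0.102. Peaks over the annotated start, ranked among genes with a listed start, gave a partly different set. Of the 7, RPL3 and RPL35A stayed apart. RPL24 (57.52 to 67.71 in DMSO, 52.49 to 59.04 in 3MB-PP1) and RPL28 (72.69 to 77.31 and 70.06 to 72.98) overlapped. For both genes the start peak was the best gene-end peak in every list, so only the set of genes ranked had changed. RPL15 had a start peak in only 6 lists, and RPL7 and RPL23A had no listed start. Of the 5, all but RPL5, which had no listed start, stayed apart. RPL41 had groups that did not overlap, with 97.39 to 98.53 in DMSO and 93.67 to 96.27 in 3MB-PP1.

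**Figure D5:**
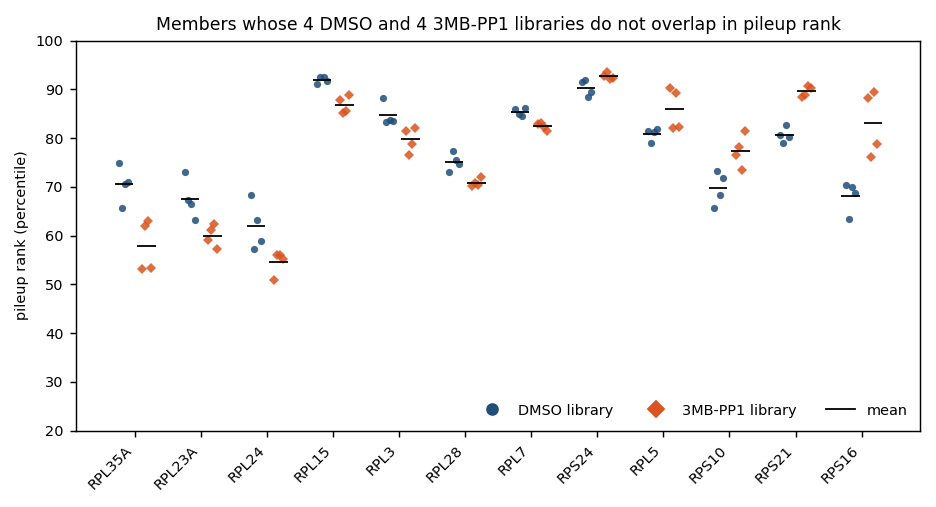
The y axis is the pileup rank (percentile of all protein-coding genes) of the best gene-end peak of the members whose groups do not overlap, with 1 point per library (circles DMSO, diamonds 3MB-PP1) and the mean of 4 as a line. The 7 genes on the left, lower with 3MB-PP1, all encode large-subunit proteins, and RPS21 and RPS16 on the right are higher by 8.96 and 15.07 rank units.

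The related lists gave the following counts in the same fits. Of the mitochondrial ribosomal protein genes, 2 were narrower past the threshold, with a median log2 width difference of -0.26 and a median rank difference of -0.67. No biogenesis or other TOP gene passed for width, and 1 biogenesis gene was higher in rank. Their median width differences were -0.22 and -0.11. The best peaks of the other TOP genes were narrower in 12 of 17 genes (70.6%), against 93.2% of members, and this difference was not tested.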

How the data were processed

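Each library has a peak list of its own, and no pooled list was used. MACS2, DESeq2 and the build hg38 are named in the submitters' processing notes, with no version, role or setting, and the aligner, read filtering and Tn5 shift are not given in the sources used here. The lists have no header. From the values, each line of the deposited lists holds a chromosome, start, end, length in base pairs, pileup, -log10 p, fold, -log10 q and a name. The deposited pileup is a coverage signal with no stated scaling, the deposited fold ratio and the -log10 p and -log10 q columns are each peak's own against the background of its list, and all are the authors'. Peaks of weaker signal can be called narrower or missed, so width and calls move with depth.

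Genes came from a RefSeq table (GRCh38.p14) without strand, hence the use of both gene ends. Starts came from a promoter table that matched 60 of 77 members. Libraries were grouped by title, with replicates numbered there; where nothing says cultures were separate, p-values measure the spread between these libraries. Log2 width and pileup rank were fitted with limma 3.58.1 (R 4.3.3) over the 11667 genes with a gene-end peak in all 8 lists, adjusted by Benjamini-Hochberg, with Python 3.11.15 for the rest. The fit was tested on simulated data. Same-numbered libraries deviated together in rank (correlations of 0.4, 0.15, 0.272 and 0.37 across genes), but so did libraries that share only an odd or an even number (0.217 and 0.287, 0.19 and 0.205). By the rule that every same-number correlation exceed 0.1, the numbers were taken to pair the libraries for rank, and the blocked p is given where it changed a call. Named genes were those not called in all 8 lists, the 5 highest and 5 lowest by rank, the 5 largest differences in each direction, members past a threshold, stalk genes, RPSA and paralogs; genes whose groups do not overlap and those in promoter or neighbour examples were named after their values were seen. A few genes are counted in the totals but their own values are not reported here. The members, lists and rule were chosen with earlier results of these data known.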

Additional observations from a re-analysis of the deposited data

Results flagged for a closer look

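In each group of 4 libraries, the width and rank of the named members were searched for 1 library standing apart (Dixon's test). Of 140 groups 14 passed, and chance flags about 1 in 20. In DMSO, replicate 4 was narrow for RPL22 (688 bp, others 1581 to 1744), RPL3 (1044 bp, others 1422 to 1481) and RPL36 (963 bp, others 1172 to 1188). Other DMSO libraries were wide: replicate 1 for RPS10 (1351 bp, others 736 to 777), replicate 2 for RPL13 (1548 bp, others 1288 to 1330), and replicate 3 for RPSA (1233 bp, others 699 to 737) and RPL24 (1182 bp, others 1095 to 1109). In rank, DMSO replicate 1 was high for RPL3 (88.2, others 83.4 to 83.8) and low for RPLP0 (86.2, others 87.3 to 87.5). With 3MB-PP1, replicate 4 was wide for RPS20 (730 bp, others 334 to 361) and narrow for RPSA (590 bp, others 691 to 707), replicate 2 was narrow for RPL27 (1371 bp, others 1728 to 1747), and replicate 3 was wide for RPL24 (1131 bp, others 921 to 950). RPL24 also ranked low in 3MB-PP1 replicate 1 (50.9, others 55.3 to 56.0).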

How the results depend on the processing

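A minimum -log10 q of 5 left 43 members called in all 8 lists. Under it 1 member, RPLP0, passed for width (adjusted p = 0.05, with the peak at the GCN1 end; 0.324 for the peak over its start, fitted over all genes with such a peak) and 3 for rank (RPL15 lower, RPS16 and RPS21 higher), the median rank difference of members turned to 0.682, and 161 of all genes passed for rank. Width calls over all genes, 160 as reported, were 4 with covered base pairs, 46 with centred widths, 78 with peaks at no other gene end and 21 with the replicate block, where 0 members passed. Centring widths on each list's median turned the members' median to 0.0113 (and the median over all genes from -0.192 to 0.0535). Rank calls over all genes, 15 as reported, were 103 with a 100 bp window (35 of them lower, against 6 of 15), 8 with 2.5 kb, 53 at annotated starts, 73 with peaks covering the start, 5 on centred log2 pileup, 3 when 2 lists a group sufficed, 2 with peaks at no other gene end and 0 with the replicate block. The members' median rank difference was 0.314 with the 100 bp window and -0.0233 on the log2 pileup scale. Calls of members for rank were 0 with 2.5 kb, log2 pileup, 2 lists a group, peaks at no other gene end (where RPS21 was left out) and the replicate block, where the RPS21 difference stayed 8.96 with an adjusted p of 0.093. Under the other settings that kept all 8 libraries, with adjusted p from 0.0104 to 0.0474, the RPS21 call was kept. The block changed no other call of a named member. For width, same-numbered libraries did not deviate together (correlations of 0.0885, -0.00946, 0.0453 and 0.0831). "Peaks at no other gene end", "peaks covering the start" and the list without 4 paralogs were chosen after seeing the data.

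Leaving out 1 library gave 72 to 340 width calls over all genes (73, 88 and 72 without DMSO replicates 1, 2 and 3, and 340 without DMSO replicate 4), 0 to 1 among members, 1 to 13 rank calls over all genes and 0 among members each time (15 and 1 with all libraries). It turned the sign of small differences that no fit called. In log2 width these ran from -0.518 to 0.018 for RPL21, -0.0549 to 0.0335 for RPL13, -0.132 to 0.115 for RPL4, -0.038 to 0.137 for RPL3, -0.0545 to 0.223 for RPS14 and -0.381 to 0.0305 for RPL11. In rank they ran from -2.39 to 3.15 for RPS23, -3.55 to 6.38 for RPS20, -5.02 to 0.23 for RPL21, -4.42 to 0.173 for RPL39L, -0.0939 to 1.13 for RPL18, -1.62 to 0.209 for RPL13, -0.11 to 0.634 for RPL36, -2.97 to 1.5 for RPL29, -0.644 to 1.1 for RPLP2, -3.93 to 5.92 for RPSA and -0.586 to 1.33 for RPS27L. The cause was not tested. Depth limits what an uncalled gene means, since the lists give no reads below threshold.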

Other observations

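The X-linked ribosomal protein genes RPS4X, RPL10, RPL36A and RPL39 had a gene-end peak in all 8 lists. Of 7 ribosomal protein genes with other names (FAU, RACK1 and RPL36AL among them), 5 had one. Among members, the median rank was 74.33 for the 46 with a TOP-like start and 75.11 for the 12 without, 74.13 for the 21 with CCGGAAG and 75.09 for the 37 without, and 61.2 for the 6 with AAGATGGC and 75.88 for the 52 without, as descriptions with no test.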
